A study of Mus musculus with 6 samples.

Results

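The RNAs described here are 9 noncoding transcripts of CD4+ T cells, out of 56246 genes in the count table. Malat1 and Neat1 are RNAs of nuclear bodies, Gas5, Snhg1, Snhg5, Snhg8 and Snhg12 are hosts of small nucleolar RNAs (snoRNAs), and Pvt1 and Gm2682 are long intergenic RNAs on chromosome 15. They were chosen by symbol, with the cKO and Control values of these same libraries known, so that every difference between cKO and Control in these 9 RNAs is a description and carries no test. The symbol was found in the count table for 8 of the 9, and Gm2682 was found by its gene ID, which the splicing tables pair with its symbol. The splicing tables hold 202 events of these RNAs among 65785 events, for 6 of the 9 RNAs, with none for Malat1, Neat1 and Snhg8.

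RNA was taken from CD4+ T cells of spleen and lymph nodes of 3 cKO and 3 Control mice, as many as there are libraries. The 3 cKO libraries are U5-52Kf/f CD4-Cretg, with both alleles of the U5 snRNP protein CD2BP2/U5-52K floxed and deleted in T cells. The 3 Control libraries are of 2 kinds: CTRL_1.2 and CTRL_3.4 are U5-52Kwt/f CD4-Cretg and so carry 1 floxed allele and the Cre, and CTRL_5.6 is U5-52Kf/f CD4-Cre-. Values per library are given in the order KO_7.8, then KO_9.10, then KO_11.12 for cKO and CTRL_1.2, then CTRL_3.4, then CTRL_5.6 for Control. CD4-Cre is switched on in the thymus before the CD4 and CD8 lineages part, so the deletion is older than the peripheral cells that were sequenced. The methods describe organs of young adult male mice. The digits in the library names are not explained in the sources used here.

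A snoRNA host gene is one whose introns encode snoRNAs. The introns of a host RNA carry box C/D snoRNAs, which guide methylation of ribosomal RNA, or box H/ACA snoRNAs, which guide pseudouridylation, and the exons left after splicing are often degraded in the cytoplasm by nonsense-mediated decay. Release of the snoRNA depends on the spliceosome, of which the U5 snRNP is a part. Malat1 is a very abundant and largely unspliced RNA of nuclear speckles, where splicing factors are stored. Neat1 is the architectural RNA of paraspeckles. Pvt1 lies downstream of the proto-oncogene Myc and is known as a p53-responsive RNA. Gm2682 has no established function that could be given here. In the data, the level of Pvt1 was higher and that of Gm2682 lower in cKO, and the reads of their exon junctions were in other proportions there. For Gas5 the levels overlapped between the groups, and inclusion of a 41-base exon was lower in cKO. For Snhg1, Snhg5, Snhg8 and Snhg12 the levels overlapped between the groups.

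The exons on which the splicing differences turn are shown next, read from GENCODE M21 transcripts on GRCm38. The cassette exon of Gas5, chr1:161037124-161037164 on the plus strand, stands in capitals between its neighbouring exons, and the form that skips it is under it:
Gas5 with the exon: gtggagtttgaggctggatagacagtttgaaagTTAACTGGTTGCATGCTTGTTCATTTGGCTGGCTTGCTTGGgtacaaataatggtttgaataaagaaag
Gas5 without the exon: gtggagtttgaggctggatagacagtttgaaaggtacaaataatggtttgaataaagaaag
The intron upstream of this exon is 271 bases long and holds Snord78, a box C/D snoRNA at chr1:161036984-161037049, and the intron downstream of it is 123 bases long and holds no annotated snoRNA. When the exon is skipped, Snord78 lies in 1 intron of 435 bases. Capitals in Snord78 mark the CTGA of its box D:
Snord78: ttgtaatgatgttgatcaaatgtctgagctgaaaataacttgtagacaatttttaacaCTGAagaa

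Gm2682 is transcribed from the minus strand of chr15:60120540-60187408, and its first exon can be joined directly to a distal exon that begins at position 60128302 or to a proximal one that begins at position 60145469. The 83-base exon, chr15:60147101-60147183, and the 96-base exon, chr15:60165649-60165744, are shown in capitals between the end of the first exon and the 19 bases of the distal exon that the events use:
Gm2682 with the 83-base exon: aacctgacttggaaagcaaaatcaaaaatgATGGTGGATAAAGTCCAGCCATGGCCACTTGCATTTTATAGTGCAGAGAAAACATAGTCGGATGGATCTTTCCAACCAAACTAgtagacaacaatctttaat
Gm2682 with the 96-base exon: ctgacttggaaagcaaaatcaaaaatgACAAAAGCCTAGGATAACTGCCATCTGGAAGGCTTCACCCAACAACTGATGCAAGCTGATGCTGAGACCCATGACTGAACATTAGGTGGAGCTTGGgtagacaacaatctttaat
Gm2682 without either exon: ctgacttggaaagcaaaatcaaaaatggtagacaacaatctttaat

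Pvt1 spans 340.1 kb of the plus strand, chr15:62037986-62378096. The group of transcripts that starts furthest upstream begins at position 62037986, and Pvt1-210 begins 1271 bases downstream of that with the first exon chr15:62039257-62039447. That first exon and the 114-base and 82-base exons, chr15:62149239-62149352 and chr15:62175467-62175548, are shown because the junctions that differed between cKO and Control join them:
Pvt1 downstream first exon: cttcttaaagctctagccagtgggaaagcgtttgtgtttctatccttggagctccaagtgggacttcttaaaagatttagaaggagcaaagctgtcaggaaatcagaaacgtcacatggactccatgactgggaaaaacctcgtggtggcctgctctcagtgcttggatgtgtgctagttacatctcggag
Pvt1 114-base exon: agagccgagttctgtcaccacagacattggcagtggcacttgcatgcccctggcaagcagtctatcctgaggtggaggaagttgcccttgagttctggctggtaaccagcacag
Pvt1 82-base exon: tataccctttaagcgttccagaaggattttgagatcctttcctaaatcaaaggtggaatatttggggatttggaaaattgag

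Reads in genes ranged from 69981159 to 82286366 in cKO and from 56995121 to 75606222 in Control, and CTRL_5.6 had the fewest. Cd2bp2, the gene that is deleted, had normalized counts of 884, 874 and 738 in cKO, against 2624, 2602 and 2612 in Control, and fell by 1.65 on the log2 scale (SE 0.11, adjusted p = 0.00137 by limma). The 5 CD4+ T cell markers found in the table summed to between 216539 and 237629 in cKO and between 239521 and 276147 in Control. Of these, Cd3e and Cd28 were lower in every cKO library, while Cd3d, Cd3g and Cd4 overlapped between the groups. The 6 B cell markers summed to 7752, 4162 and 6036 in cKO, against 8798, 9170 and 11680 in Control. Of these 6, Cd22 was highest in KO_7.8. The 2 CD8+ T cell markers summed to 916, 614 and 653 in cKO, against 710, 996 and 1571 in Control. The 2 NK cell markers summed to 2869, 3796 and 2711 in cKO, against 2808, 2209 and 1937 in Control. Of these, Ncr1 was higher in every cKO library, at 251, 344 and 220 against 114, 86.4 and 94.4 in Control, while Klrb1c overlapped. In several other marker sums KO_7.8 stood apart from the other libraries. Its 7 myeloid markers summed to 10292, against 2063 and 2618 in the other cKO libraries and 1305 to 2412 in Control. Lyz2 and Csf1r made up most of that sum, with 6604 and 3128. S100a8 and S100a9 were at 11.6 and 7.4 in KO_7.8 and were not highest there. Its 5 cycling markers summed to 10125, against 3206 and 3105 in the other cKO libraries and 2833 to 4090 in Control. The 4 dendritic cell markers summed to 9148 in KO_7.8 and to between 1540 and 3235 elsewhere. Among these, Xcr1 was highest in KO_9.10, at 355, and Siglech in CTRL_5.6, at 579. The 4 erythroid markers found summed to 3076 in KO_7.8 and to 4063 in CTRL_5.6, against 171 to 484 in the other libraries. In bulk RNA, fewer cells of a type and less RNA per cell cannot be told apart.

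Levels are normalized counts, which are reads per gene divided by a size factor for each library. Genes whose mean reached 100 in cKO or in Control were fitted with limma on log2(normalized count + 1), and fold changes are on that scale, cKO over Control. Of the 8 RNAs with a symbol, 0 had an adjusted p under 0.05 together with a log2 difference above 1 in either direction, limits passed by 0.564% of 11001 genes. Only Pvt1 of these 8 passed the adjusted p alone, as did 0.673% of genes in the same direction. In a fit of 13015 genes with and without a symbol, Gm2682 passed both limits, as did 0.0768% of genes in its direction. The libraries of the groups did not overlap for Pvt1, above Control, as for 12.6% of genes, nor for Gm2682 and Malat1, below Control, as for 11.5% of genes. Since these contrasts were known when the RNAs were chosen, nothing is read from these counts. The median log2 fold change of the 9 RNAs was -0.38, beside 0.01 for the genes fitted, with 7 of the 9 below 0.

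**Figure D1:**
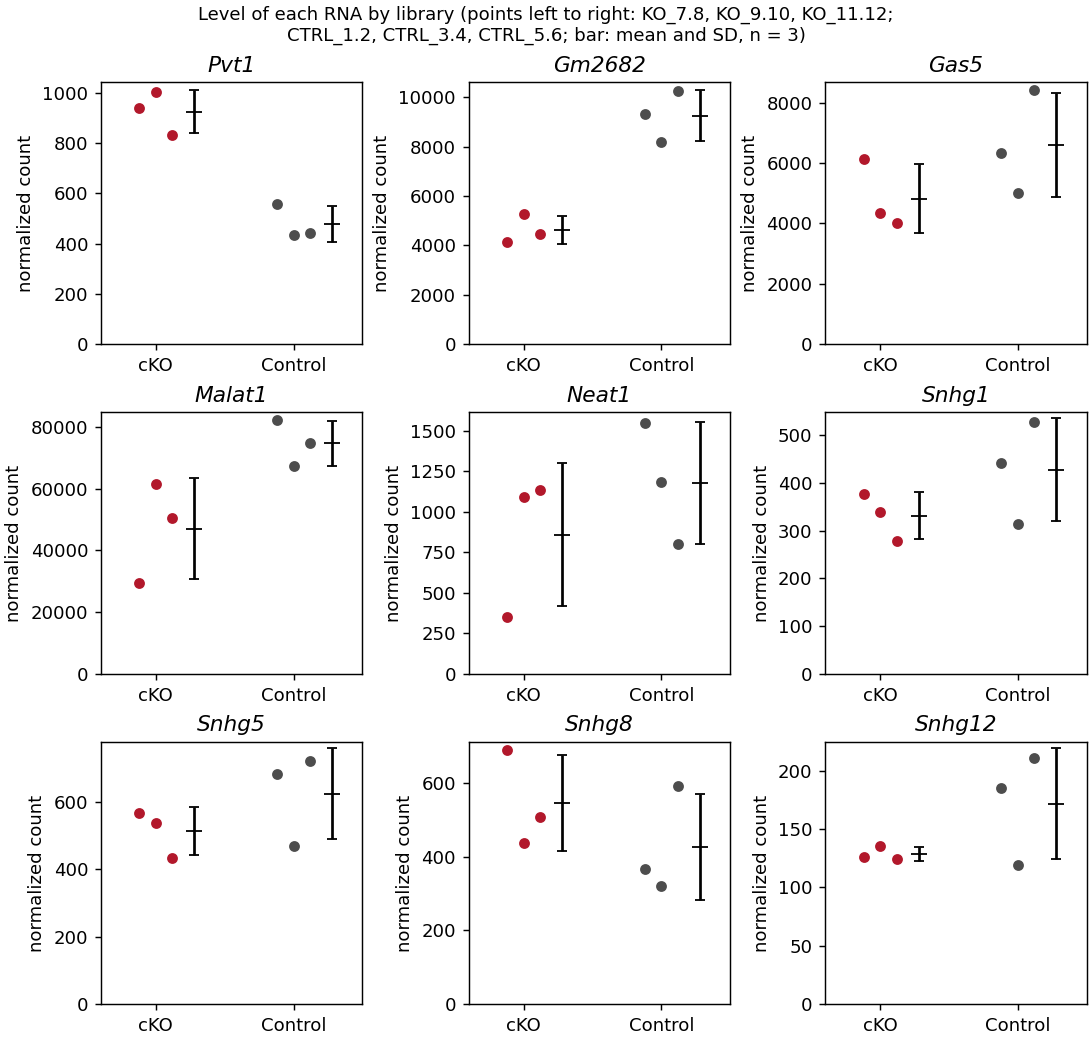
Normalized count (y axis, from 0) of each of the 9 RNAs in the 3 cKO (red, left) and 3 Control (grey, right) libraries; the bar is the mean with its SD. Pvt1 lies higher and Gm2682 and Malat1 lower in cKO with no overlap, while the points of the other 6 RNAs overlap between the groups.

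Pvt1 and Gm2682 lie on either side of Myc on chromosome 15. Pvt1 had normalized counts of 941, 1003 and 833 in cKO, against 559, 434 and 442 in Control. All cKO libraries were above all Control libraries, and the mean was 926 ± 86.1 in cKO and 478 ± 70.2 in Control (SD, n = 3 each). The log2 fold change was 0.96 (SE 0.15), and it lay between 0.89 and 1.07 with any 1 library left out. With any library left out, by edgeR, with robust variances, under either other filter on low counts and in the fit of genes with and without a symbol, Pvt1 no longer passed the adjusted p limit. Without KO_7.8, the library with high myeloid and cycling markers, the log2 fold change was 0.94.

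Gm2682 had normalized counts of 4148, 5268 and 4479.8 in cKO, against 9346, 8191 and 10249.9 in Control. The mean was 4632 ± 575 in cKO and 9262 ± 1032 in Control (SD, n = 3 each), and no cKO library reached the lowest Control library. The log2 fold change was -1.0 (SE 0.13), just at the limit of 1. Leaving out 1 library gave -0.92 to -1.10, and Gm2682 then no longer passed both limits, whichever library it was. Per kilobase of annotated exon the mean count was 2240 in cKO and 4479 in Control, second to Malat1 in both groups, with 6739 in cKO and 10700 in Control. Such values per length depend on which annotated exons a cell uses.

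The genes around them were measured as well. Myc, which drives growth and ribosome production, had normalized counts of 8750, 7160 and 7636 in cKO, against 10329, 10885 and 12803 in Control. All cKO libraries were below Control, with a log2 fold change of -0.53 (SE 0.12, adjusted p = 0.111 by limma, not passing the threshold). Trib1, a pseudokinase gene on the far side of Gm2682, had a log2 fold change of 0.41 (SE 0.30, adjusted p = 0.542 by limma). Of the 7 genes listed for the Myc region, 5 could be tested, and 0 passed an adjusted p under 0.05, a limit passed by 0.973% of all genes. Among the 5, 1 had an unadjusted p under 0.05, edgeR called 0 and DESeq2 called 1, Myc. The share of all genes at these further limits is not given here, so nothing is read from these counts. Their median log2 fold change was -0.01. The neighbour of Pvt1 on the other side, Fam49b, is 1551 kb away and had a log2 fold change of 0.12 (SE 0.11), and Fam84b, 631.6 kb from Gm2682, had -0.12 (SE 0.25).

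The direct junction to the distal exon of Gm2682 had more reads in cKO. An exon junction read spans the splice between a pair of exons. The deposited splicing counts give 3 values for each group whose library is not named, and they were not scaled for depth. Reads that join the first exon directly to the distal exon numbered 89, 72 and 106 in cKO, against 34, 29 and 31 in Control. Reads that join it directly to the proximal exon numbered 118, 264 and 193 in cKO, against 419, 470 and 362 in Control. The distal junction was higher and the proximal junction lower in every cKO value, although the total level of the gene was lower. The distal junction took 43.0, 21.4 and 35.5% of the reads of both junctions in cKO, against 7.5, 5.8 and 7.9% in Control. The mean share was 33.3% ± 10.9 in cKO and 7.1% ± 1.1 in Control (SD, n = 3 each). These junctions were singled out after their values were seen.

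The inclusion level of an exon is the share of transcripts, corrected for length, that hold it, and a differentially spliced variant (DSV) here has an FDR under 0.01 and a difference of at least 10 points. Of 163 events of these RNAs with at least 20 reads in both groups, 6 passed both limits, and in all 6 inclusion was lower in cKO. They were 4 skipped exon (SE) events, 1 alternative 5' splice site (A5SS) event and 1 event of mutually exclusive exons (MXE). Over all genes, lower inclusion in cKO past these limits was found for 0.406% of SE, 0.271% of A5SS and 0.135% of MXE events. The events share reads with each other and were known when the RNAs were chosen, so nothing is read from the counts. With 1 value left out, between 3 and 6 of the 6 still passed.

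For Gm2682, both DSVs had the distal exon as a flank. Against that flank, the 83-base exon was included at 3.5, 21.1 and 14.5% in cKO and at 45.9, 56.6 and 57.4% in Control, a difference of -40.3 points. The 96-base exon was included at 16.5, 13.2 and 14.7% in cKO and at 33.4, 41.6 and 48.5% in Control, a difference of -26.4 points. No cKO value reached the lowest Control value for either exon. Without the Control value 3 the 96-base exon differed by -22.7 points and missed the FDR limit. With the proximal exon as the flank, the 83-base exon was at 19.3, 15.1 and 20% in cKO and at 20.9, 21.2 and 26.6% in Control, also without overlap but with a difference of -4.8 points. The 96-base exon was then at 12.2, 4.0 and 9.9% in cKO and at 4.6, 5.0 and 8.5% in Control, where the values overlap. Reads that skip both exons toward the distal exon are the same reads in both DSVs. Inclusion reads need not reach the flank: those of the 96-base exon numbered 28, 34 and 48 in Control with the distal exon and with the 83-base exon as the flank, so the levels are no measure of transcripts that end in the distal exon. Between the first exon and the 83-base exon, the 96-base exon was at 43.9, 19.4 and 26.7% in cKO and at 17.2, 16.9 and 21.1% in Control, where the values overlap, a difference of 11.6 points.

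For Pvt1, direct junctions from the downstream first exon past the next exon were almost absent from Control. Junction reads from that exon past the next exon numbered 21, 36 and 34 in cKO, against 1, 1 and 0 in Control. Junction reads of the same kind from the upstream first exon numbered 25, 23 and 21 in cKO, against 19, 11 and 9 in Control. All cKO values were above all Control values for both, but the downstream exon made up 45.7, 61.0 and 61.8% of these reads in cKO and 5.0, 8.3 and 0.0% in Control. These sums cover only junctions that leave out the next exon, the 318-base exon chr15:62107148-62107465, and they were chosen after their values were seen. Inclusion counts add the junctions on both sides of the 318-base exon and can hold reads inside it. Reads that join either first exon to it are thus not given on their own.

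**Figure D2:**
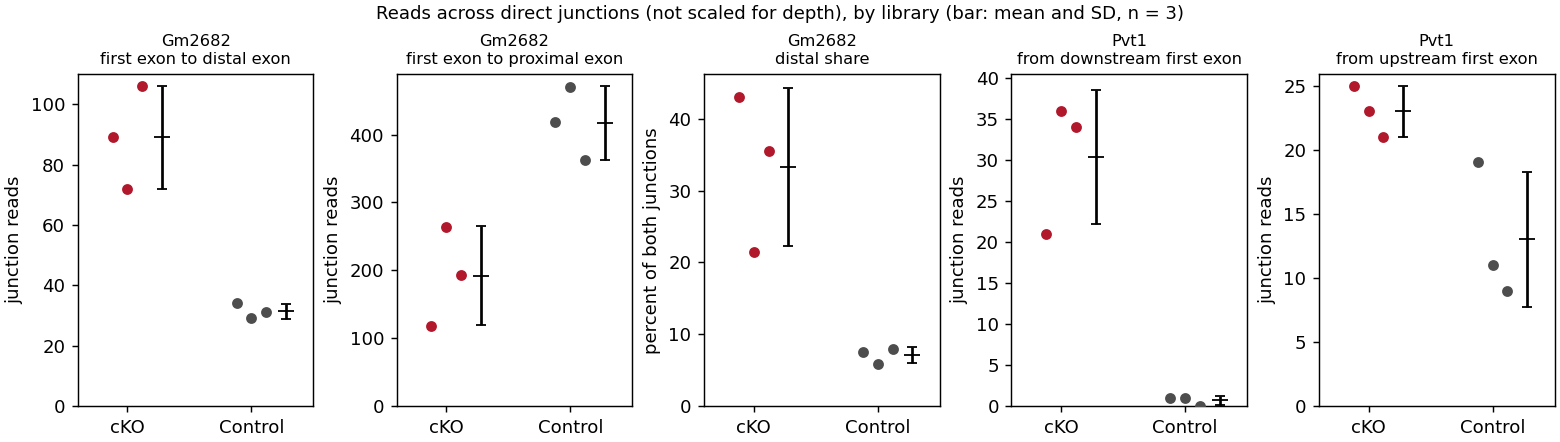
Reads across direct exon junctions (y axis, from 0, not scaled for depth) of Gm2682 and Pvt1, and the distal share of Gm2682 in percent, for the 3 cKO (red, left) and 3 Control (grey, right) values with mean and SD. Distal Gm2682 junction reads lie between 72 and 106 in cKO and between 29 and 34 in Control, and reads from the downstream first exon of Pvt1 lie between 21 and 36 in cKO and at 0 or 1 in Control.

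The event with the largest difference past the limits pairs the downstream first exon and the 114-base exon with the 318-base exon between them. Its inclusion level was 49.7, 59.1 and 47.6% in cKO and 100% in each Control value, a difference of -47.9 points, or -22.8 points when not corrected for length. Skipping reads were 11, 19 and 20 in cKO and 0 in each Control value, and inclusion reads 34, 86 and 57 in cKO, against 38, 49 and 19 in Control. The inclusion reads include the junction of the 318-base to the 114-base exon, which transcripts from either first exon can carry, so the level is no measure of inclusion from the downstream first exon. With a later exon, which starts at position 62242174, as the other flank, inclusion reads were 13, 46 and 28 in cKO, against 1, 2 and 0 in Control. Reads that join the downstream first exon to the 318-base exon can number no more than that, so in Control this first exon had few reads of either kind. From the upstream first exon to the same 114-base exon, inclusion was 60.0% in cKO and 63.3% in Control, a difference of -3.4 points with overlapping values.

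The other DSV of Pvt1 set the 114-base exon against the 82-base exon. The level of the 114-base exon in this event was 18.7, 26.7 and 22.3% in cKO, against 45.2, 61.7 and 50.1% in Control, a difference of -29.8 points. The reads behind it were 22, 34 and 30 for the 114-base exon and 84, 82 and 92 for the 82-base exon in cKO. In Control they were 30, 33 and 16 for the 114-base exon and 32, 18 and 14 for the 82-base exon. Reads counted for the 82-base exon were thus higher in every cKO value, while those for the 114-base exon overlapped. Both counts include junctions that transcripts with both exons also carry, so the level is no measure of 1 exon used in place of the other. Reads that join the 318-base exon directly to the 82-base exon numbered 34, 31 and 41 in cKO, against 16, 10 and 8 in Control. This event missed the limits without the cKO value 1, the Control value 2 or the Control value 3, and the 318-base exon missed them without the cKO value 3 or any Control value, with differences between -25.1 and -30.9 points for the 114-base exon and of -45.6 or -47.9 points for the 318-base exon. Of the 26 Pvt1 events tested, 11 differed by at least 10 points, all 11 with lower inclusion in cKO, beside 2.52% of the events of all genes, and 9 of these did not pass the FDR limit. The 11 are not separate observations, since several share their skipping reads, such as 8, 3 and 4 in cKO and 0 in each Control value in 3 of them. Among them the 132-base exon was included at 26.4, 25.5 and 17.1% in cKO, against 31.7, 45.9 and 37.4% in Control, between the 318-base and the 82-base exon. A pair of 5' splice sites 4 bases apart differed by -11.4 points, with the longer form at 70.2, 72.2 and 76.9% in cKO and 84.4, 77.5 and 91.5% in Control.

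Gas5 had normalized counts of 6115, 4339 and 4007 in cKO, against 6331, 4998 and 8431 in Control, and the groups overlapped. The log2 fold change was -0.44 (SE 0.23). Without CTRL_5.6, the highest library and the one without Cre, it was -0.25. Its 41-base exon was the most deeply covered DSV of the 9 RNAs, with 10001 reads. Inclusion was 50.2, 51.6 and 50.8% in cKO, against 61.5, 62.8 and 62.4% in Control, so that the groups were far apart against a spread of 0.70 points in cKO and 0.69 points in Control (SD, n = 3 each). The difference was -11.4 points. Skipping reads numbered 740, 625 and 604 in cKO, against 577, 529 and 645 in Control, and inclusion reads 952, 850 and 796 in cKO, against 1175, 1141 and 1367 in Control. Inclusion reads were lower in every cKO value, and skipping reads overlapped.

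The A5SS event of Gas5 past the limits uses the same skipping reads and is no separate observation. Its long form, 345 bases, runs through the intron of Snord78 into the 41-base exon. The level of that form was 26.7, 27.7 and 26.0% in cKO and 36.7, 37.6 and 36.5% in Control. Its inclusion reads can include the junction of the 41-base exon to the next exon. Transcripts that splice out the intron carry that junction too, so the level is no measure of RNA that keeps the intron. The difference of -10.1 points was just inside the limit, and was -9.7 without the cKO value 3 and -9.8 without the Control value 2. The intron of Snord78 itself was retained at 6.3, 7.3 and 5.7% in cKO and at 6.3, 5.1 and 5.0% in Control, where the values overlap. An MXE event set the 33-base exon before the intron against the 41-base exon. The level of the 33-base exon was 50.8, 41.3 and 45.0% in cKO, against 37.8, 33.8 and 34.2% in Control. The difference of 10.4 points did not pass the FDR limit, and transcripts with both exons carry some of the junctions counted. The other 3 Gas5 events past 10 points, all A5SS, had between 0 and 9 reads of the rarer form in each value, did not pass the FDR limit and differed by 1.6, -3.4 and 4.2 points when not corrected for length.

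**Figure D3:**
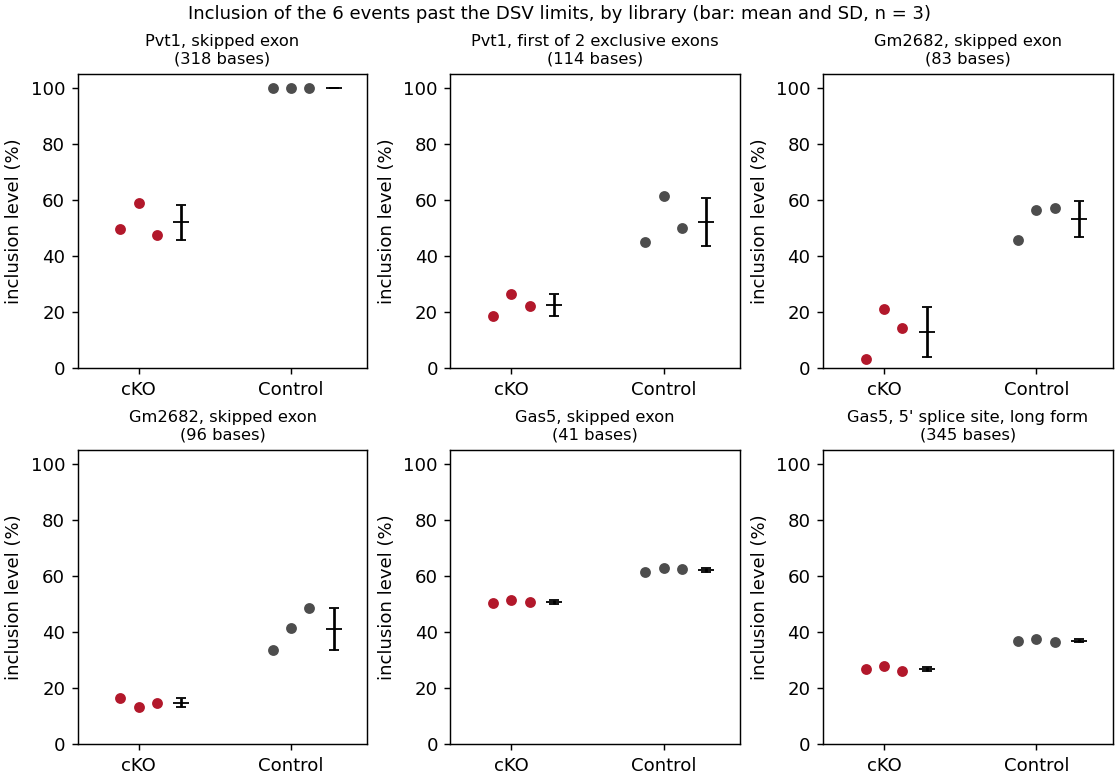
Inclusion level in percent (y axis) of the 6 events past the DSV limits, for the 3 cKO (red, left) and 3 Control (grey, right) values with mean and SD. Inclusion is lower in cKO without overlap in each panel, with the tightest values for the 41-base exon of Gas5, near 51% in cKO and 62% in Control.

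Of the introns of the snoRNA hosts that had a tested retention event, with or without a snoRNA, none passed both limits for a difference. Over all genes, 4 of 2206 tested events of this class passed them, so nothing is read from this count. Of 21 retained intron (RI) events tested in Gas5, Snhg1, Snhg5 and Snhg12, 16 had an annotated snoRNA in the intron. Some snoRNAs, such as Snord78, are held by overlapping events. Others lie in introns without a tested event, such as Snord47 of Gas5, Snora44 of Snhg12 and Snora24 of Snhg8. Across the 21 the difference ran from -3.9 to 4.7 points, with 12 higher and 9 lower in cKO, and none reached 10 points. The lowest was a Gas5 event over 805 bases, a stretch that holds a 37-base and a 31-base exon. Another Gas5 event, at 82.2% in cKO and 80.2% in Control, holds the 31-base exon. Reads of such exons can count as retention there, so these levels are no measure of retained introns. The largest rise was in the Snhg1 intron of the snoRNA annotated as Gm22744. It was retained at 12.5, 6.5 and 3.5% in cKO and 3.9, 2.1 and 2.2% in Control, where the values overlap. The Snhg1 intron of Gm24452 was retained at 6.3, 5.4 and 4.8% in cKO, against 1.0, 2.0 and 4.2% in Control, without overlap. It was the only such event of the 21, on 10, 10 and 7 inclusion reads in cKO and 2, 3 and 6 in Control. The share of events without overlap over all genes is not given here, so nothing is read from it. The Snord50a intron of Snhg5 was at 1.9% in cKO and 1.6% in Control, and the Snord99 intron of Snhg12 at 0.7% in cKO and 0% in Control, on means of 3. No reads were assigned to the snoRNAs themselves. All 26 snoRNA genes annotated inside the 5 hosts are listed at 0 in the 6 libraries. So are 1183 of 1507 snoRNA genes in the table. Annotated exons of Snhg1, Snhg8 and Snhg12 span the whole locus, snoRNAs included, and how reads shared by genes were counted is not given. A value of 0 does not show that no read lay there. The abundance of the snoRNAs is thus not measured here.

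Snhg1, Snhg5 and Snhg12, whose introns encode snoRNAs, had lower mean levels in cKO, with overlapping libraries. Snhg1 had normalized counts of 376, 339 and 279 in cKO, against 441, 314 and 527 in Control, and a log2 fold change of -0.34 (SE 0.24). Snhg5 had 569, 537 and 433 in cKO, against 683, 469 and 722.5 in Control, and a log2 fold change of -0.27 (SE 0.21). Snhg12 had 126, 135.5 and 124.5 in cKO, against 185, 119 and 211.5 in Control, and a log2 fold change of -0.38 (SE 0.27). In each of these RNAs, and in Gas5, CTRL_5.6 was the highest of the 6 libraries. Without CTRL_5.6 the log2 fold changes were -0.18 for Snhg1, -0.15 for Snhg5 and -0.21 for Snhg12. Without CTRL_3.4, the lowest or next to lowest of the 6 libraries in them, they were -0.55 for Snhg1, -0.46 for Snhg5 and -0.62 for Snhg12. CTRL_5.6 is the Control library without Cre, with the fewest reads and the highest erythroid markers, and the part of these in the levels was not tested.

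Snhg8, which hosts the H/ACA snoRNA Snora24, had normalized counts of 689.6, 437 and 508 in cKO, against 366, 321 and 590.3 in Control. KO_7.8 was the highest library and the groups overlapped, with a log2 fold change of 0.38 (SE 0.28). Without KO_7.8 or without CTRL_3.4 it was 0.20, and without CTRL_5.6 it was 0.64. Its neighbour Prss12, a serine protease gene 1.0 kb away on the opposite strand, had 48.4, 104 and 156 in cKO, against 512, 581 and 360.0 in Control. Prss12 was lower in every cKO library, with a log2 fold change of -2.35 (SE 0.44, adjusted p = 0.071 by limma, not passing the threshold).

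Host genes of snoRNAs are known for a run of pyrimidines at the transcription start, a feature of genes whose translation follows growth signals. The promoters given by RefSeq for GRCm38 are printed in a window of 80 bases with the start in the middle. Capitals mark the longest run of C and T within 15 bases on each side of the start, which in Snhg1 and Snhg5 begins after it:
Gas5 at chr1:161035126-161035205: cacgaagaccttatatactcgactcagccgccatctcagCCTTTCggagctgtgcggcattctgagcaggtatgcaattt
Snhg1 at chr19:8723447-8723526: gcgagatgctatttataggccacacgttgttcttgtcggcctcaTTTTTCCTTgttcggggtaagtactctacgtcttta
Snhg5 at chr9:88522858-88522937: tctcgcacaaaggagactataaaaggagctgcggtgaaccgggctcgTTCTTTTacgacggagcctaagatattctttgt
Snhg8 at chr3:123508297-123508376: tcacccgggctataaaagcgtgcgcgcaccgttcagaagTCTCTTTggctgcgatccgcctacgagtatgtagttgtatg
Snhg12 at chr4:132308638-132308717: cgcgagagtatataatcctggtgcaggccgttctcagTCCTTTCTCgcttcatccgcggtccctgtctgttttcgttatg
A run as long as the 9 bases of Snhg1 and Snhg12 was found in 7.73% of 32851 promoters, as long as the 7 bases of Snhg5 and Snhg8 in 18.6%, and as long as the 6 bases of Gas5 in 29.2%. Gas5 has another start in RefSeq, where the run is 3 bases, as long or longer in 88.5% of promoters. Malat1 has a run of 4 bases, as long or longer in 69.1% of promoters. The letters CACGTG, searched on both strands at once since they read the same, were in none of these windows of 300 bases and in 7.15% of all promoters.

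Both nuclear body RNAs were lowest in KO_7.8. Malat1 had normalized counts of 29440.2, 61398 and 50341 in cKO, against 82011, 67387 and 74662 in Control. Every cKO library was below every Control library, and the cKO mean was 63.0% of the Control mean, with a log2 fold change of -0.73 (SE 0.26). The lowest value was in KO_7.8, and without it the log2 fold change was -0.42 (SE 0.14), still without overlap. Neat1 had 352, 1093 and 1137 in cKO, against 1552, 1184 and 799 in Control, with overlap and a log2 fold change of -0.58 (SE 0.48). Without KO_7.8 it was -0.03 (SE 0.26). KO_7.8 is the library with high myeloid, dendritic cell and cycling markers, and the part of these in the levels of Malat1 and Neat1 was not tested.

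Malat1 and Neat1 are neighbours on chromosome 19, 22.0 kb apart on the same strand. Frmd8, next to Neat1, had a log2 fold change of -0.09 (SE 0.13, adjusted p = 0.799 by limma) and did not pass the test. Around the hosts, Slc3a2, which lies 0.1 kb from Snhg1, had -0.08 (SE 0.10), and Trnau1ap next to Snhg12 had -0.05 (SE 0.09), both on the log2 scale. Zbtb37 overlaps Gas5 on the opposite strand and had -0.33 (SE 0.26). This kind of library does not mark strand, so reads of the pair cannot be told apart where they overlap.

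**Figure D4:**
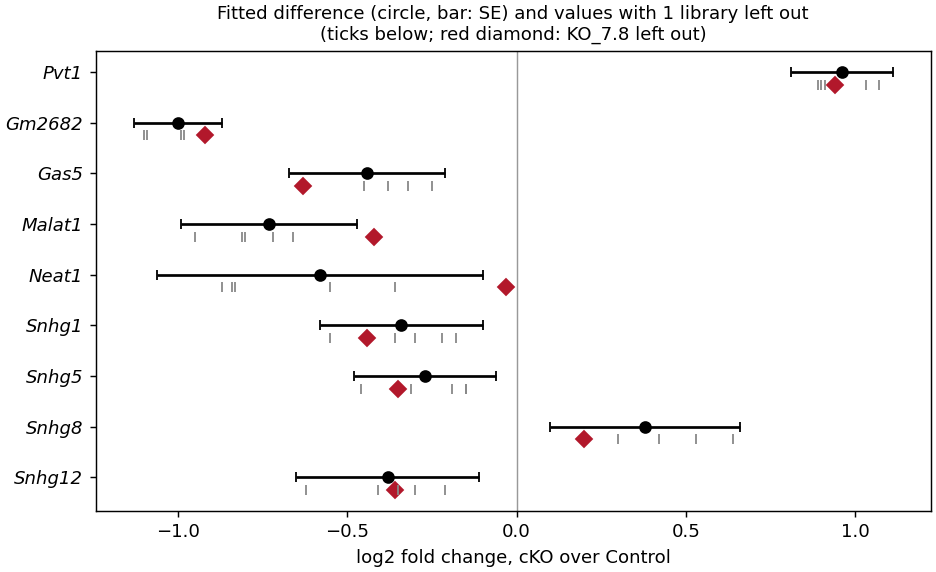
Fitted log2 fold change, cKO over Control (x axis), of the 9 RNAs as circles with the SE as bar, and under each the 6 values with 1 library left out (ticks, with a red diamond for KO_7.8 left out). Neat1 moves to -0.03 and Malat1 to -0.42 without KO_7.8, while Pvt1 stays between 0.89 and 1.07 and Gm2682 between -0.92 and -1.10.

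Genes that make, hold or degrade these RNAs were read from lists, tested among all 11001 genes. An adjusted p under 0.05 by limma was reached by 0.973% of all genes. The share of all genes at an unadjusted p under 0.05, or passing by edgeR or DESeq2, is not given here. Nothing is read from those counts in this or the other lists. Of 12 paraspeckle proteins tested, 0 passed an adjusted p under 0.05, with 0 at an unadjusted p under 0.05 and 0 by edgeR and by DESeq2. Their median log2 fold change was -0.10, and the genes of largest fold change were Hnrnph3, -0.37 (SE 0.23), and Pspc1, -0.18 (SE 0.11). Of 12 nuclear speckle proteins, 0 passed, with 1 at an unadjusted p under 0.05, 0 by edgeR and 1 by DESeq2. That gene was Sart1, a protein of the tri-snRNP, with normalized counts of 3726, 4185 and 3962 in cKO, against 2796, 2739 and 2580.4 in Control. It was higher in all 3 cKO libraries, with a log2 fold change of 0.55 (SE 0.09, adjusted p = 0.0506 by limma), and passed with KO_7.8 left out. Srsf2, an SR splicing factor, had -0.20 (SE 0.20) and the list a median of 0.02.

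Of 18 proteins that bind or assemble snoRNPs, 0 passed, with 0 at an unadjusted p under 0.05, 0 by edgeR and 0 by DESeq2. The median was -0.04 and the range -0.28 to 0.25, between Nop56, a core box C/D protein, and Nufip1, an assembly factor. Of 17 factors of nonsense-mediated decay, 0 passed, with 2 at an unadjusted p under 0.05, 0 by edgeR and 0 by DESeq2. These were Eif4a3, of the exon junction complex, with 14173, 10915 and 11865 in cKO against 8339, 8497 and 10336 in Control and a log2 fold change of 0.44 (SE 0.13, adjusted p = 0.181 by limma), and its partner Magoh, 0.41 (SE 0.17, adjusted p = 0.291 by limma). The median of that list was -0.04.

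Other noncoding hosts were read in the same way. Of 16 further snoRNA hosts, 5 were tested by symbol and 0 passed, with 2 at an unadjusted p under 0.05, 0 by edgeR and 1 by DESeq2. All 5 had a log2 fold change above 0, with a median of 0.20. Snhg15 had 1152, 1058 and 1109 in cKO, against 637, 481 and 749 in Control, with no overlap and a log2 fold change of 0.85 (SE 0.18, adjusted p = 0.0933 by limma). Snhg10 had a log2 fold change of 0.75 (SE 0.24, adjusted p = 0.208 by limma). Snhg17 and Zfas1, found by gene ID only and named after their values were seen, had -0.51 (SE 0.17) and -0.20 (SE 0.37) in the fit of genes with and without a symbol. Of 21 other long noncoding and miRNA host genes, 8 were tested by symbol and 0 passed, with 1 at an unadjusted p under 0.05, 0 by edgeR and 1 by DESeq2, and a median of -0.38. That gene was Jpx, an activator of Xist, with a log2 fold change of -0.76 (SE 0.21, adjusted p = 0.158 by limma), and Lncpint, a p53-induced RNA, had -0.49 (SE 0.36, adjusted p = 0.553 by limma). Among genes found by gene ID only, Mir142hg, named after its values were seen, had 374, 421 and 444 in cKO, against 675.5, 601 and 729 in Control, lower in all cKO libraries with a log2 fold change of -0.69 (SE 0.15, adjusted p = 0.116 by limma).

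The genes whose log2 level was most like that of each RNA over the 6 libraries are given as a description, since depth, genotype and the markers of other cells are shared by all genes of a library. For Pvt1 they were Fbxw17 (Pearson r = 0.994) and Mgmt (0.988), and for Gm2682 Slc28a2 (0.996) and Izumo4 (0.995). For Malat1 they were Ttc19 (0.993) and Trim3 (0.989), and for Neat1 Malt1 (0.996) and Atxn7 (0.995). For Gas5 they were Cdkl4 (0.994) and Ift52 (0.991), and for Snhg8 Gpr65 (0.998) and Txndc17 (0.995). Snhg1 and Snhg5 had Gm15133 in common, with 0.989 and 0.987, beside Tcaim (0.989) for Snhg1 and Haghl (0.985) for Snhg5. For Snhg12 they were Tatdn1 (0.987) and 1110065P20Rik (0.984). With 6 libraries such values are frequent: r was above 0.9 for between 38 of 11001 genes compared, for Snhg5, and 537, for Snhg8.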

How the data were processed

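RNA of CD4+ T cells was sequenced in 3 cKO and 3 Control libraries as paired reads from a low-input library kit that primes on poly(A) and does not mark strand. Per the study's methods and the submitters' processing notes, cutadapt was used for trimming, STAR for alignment to GRCm38 (mm10) and featureCounts for counting. For each gene the authors deposited a signal, read counts scaled by the size factors of DESeq2. All 100% of the values were whole reads within 0.01 reads after division by the step of a library. The rMATS tables deposited by the authors hold inclusion and skipping counts per event, 3 values per condition with the library not named. Columns of the authors' own comparisons (fold changes, p-values, FDR) were not used, and 0 columns of samples were left unused.

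Genes that have a symbol and whose mean reached 100 in cKO or Control were fitted with limma 3.58.1 (R 4.3.3, trend in the variance) on log2(normalized count + 1), which understates fold changes of low genes, with Benjamini-Hochberg adjustment over all genes. Gm2682 has no symbol in the count table, and its values come from the same fit over genes with and without a symbol, added after seeing the data. Whole reads were also tested with edgeR 4.0.16 and DESeq2 1.42.0. Splicing events whose mean reached 20 reads in each group were fitted by quasi-binomial regression on the inclusion and skipping counts. The dispersion was moderated by limma, its prior taken from events with 5 or more reads of the rarer form on average and its floor set at 1, and p-values were adjusted within each event class. Both tests were checked on simulated data. No libraries were duplicates, since chi-square per gene between libraries of a group was at least 23.7. The study's methods give 3 cKO and 3 control mice, as many as libraries, and p-values measure the spread between these.

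The 9 RNAs, the gene lists and the tests were chosen with earlier results of these data known. Named are the 9 RNAs, the genes on each side of them (some are not reported here), up to 4 genes of smallest p among those that passed in each list (the 2 of largest fold change where none did), the 2 genes most like each RNA, and events past the limits or 10 points, otherwise the 2 with most reads. Alternatives were other pseudocounts, filters, normalizations, tools, read minimums and priors, and leaving out each library. Intervals and floors cover counting error only.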

Additional observations from a re-analysis of the deposited data

How the results depend on the processing

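The log2 fold changes of the 9 RNAs kept their direction under each alternative that gave a value, 125 in all, and the named splicing differences in 270 of 275. With a pseudocount of 10, 0 of the 9 RNAs passed both expression limits, against 1, and with any library left out the count was 0. Over all genes, DESeq2 called 236 genes against 62 by limma, and leaving out a library called 26 to 70. At an adjusted p under 0.05 alone, with no limit on the fold change, 1 gene each among other snoRNA hosts, other long noncoding genes, nuclear speckle proteins and genes of the Myc region passed by DESeq2, where 0 passed by limma, and 0 to 1 speckle proteins passed with a library left out. A dispersion prior over all events called 445 splicing events and an FDR under 0.05 called 391, against 260, and leaving out a value called 186 to 258. Of the 6 DSVs of these RNAs, 3 to 6 were called with 1 value left out: the 41-base exon of Gas5 and the 83-base exon of Gm2682 passed in each case. The retention of 3 introns turned sign or reached 0 with 1 value left out, between -2.3 and 1.0 points for Snord22 in Snhg1, between -0.5 and 1.7 points for Snord50a in Snhg5 and between 0 and 1.1 points for Snord99 in Snhg12. The cause of these differences was not tested. Events of Pvt1 rest on few junction reads, and with 3 libraries a group the smallest p of an exact permutation test is 0.1. No paired analysis was possible because the labels give no replicate number that the groups share.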
